A study of Rattus norvegicus with 36 samples.

Results

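Vitamin A uptake and retinoid metabolism in the gut was followed through the transcripts of 10 named genes: Scarb1, Bco1, Isx, Plb1, Rbp2, Lrat, Dhrs9, Rdh7, Aldh1a1 and Aldh1a2. The genes were taken by symbol from the table of raw read counts, which annotates 24773 genes, and 9 of the 10 symbols matched a row. Rdh7, a retinol dehydrogenase, matched no row used here and has no value in what follows.

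Vitamin A reaches the intestine as carotenoids from plants and as retinyl esters from animal tissue and fortified feed. Carotenoids enter the enterocyte through scavenger receptors and are cleaved to retinaldehyde, while retinyl esters are hydrolysed to retinol at the brush border. Inside the cell retinol is held by a cellular binding protein, re-esterified and packed into chylomicrons, and a smaller flow is oxidised to retinaldehyde and then to retinoic acid, the ligand of nuclear receptors. In mouse intestine retinoic acid induces the homeobox repressor ISX, which lowers the scavenger receptor and the carotenoid cleavage enzyme, so that uptake is throttled when vitamin A is plentiful.

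Poly-A RNA was sequenced from whole distal ileum and whole proximal colon of 18 male UCD-T2DM rats, a strain that becomes obese and then spontaneously diabetic on standard chow. The rats formed 3 groups of 6 animals, each giving 1 library per tissue. The non-diabetic group (ND, written as PD in another label field) was aged 70 days, weighed 390 to 431 g and had fasting glucose of 85.6 to 101.6 mg/dl. The recently diabetic group (D1M) was 168 to 172 days old, had been diabetic for 22 to 23 days, weighed 597 to 663 g and had fasting glucose of 93.6 to 178.6 mg/dl. The group with untreated diabetes of about 3 months (D3M) was 172 to 173 days old, had been diabetic for 88 to 116 days, weighed 472 to 575 g and had fasting glucose of 165 to 330.6 mg/dl. The strain has no genetically matched healthy control, and the ND rats were also the younger ones, so that age and diabetes cannot be told apart in any comparison with ND. The D1M and D3M rats were close in age.

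Libraries held 12279059 to 21510043 counts in ileum and 10024041 to 18299050 counts in colon. The unit of level is CPM, read counts brought to a common library size after allowing for library composition, and changes are log2 fold changes with their standard error (SE). A gene was called when its false discovery rate (FDR), adjusted over all genes tested in edgeR, was under 0.05. The ileal bile acid binding protein transcript Fabp6 lay between 12403 and 32249 CPM in every ileum library and at 21.3 CPM or less in 17 colon libraries, the exception being ND rat K4028, whose colon library showed 8706 CPM. The colonic carbonic anhydrase transcript Car1 reached 1345 CPM in ileum of D3M rat P762 and 3616 CPM in ileum of ND rat K4040, and was at 130.4 CPM or less in the other 16 ileum libraries. The colon library of K4028 and the ileum library of K4040 are called the mixed-tissue libraries below. They went against their tissue labels in part, and results of the 9 genes that rested on them are given with and without them. For the further genes named below, fits without them were counted but are not given singly. The ileum library of P762 is not counted as mixed-tissue by this name, despite its Car1 level. It also held the highest D3M value of Dhrs9, Bco1 and Lrat and the lowest of Plb1 in ileum. Fits without it as well are given for Bco1 and for those of the 9 genes that were called. Libraries were run on 3 flow cells that were unevenly spread over the groups (D3M ileum had 4 libraries on flow cell 1, none on flow cell 2 and 2 on flow cell 3, while ND ileum had 1, 3 and 2), and flow cell was a term in the fits reported here unless stated.

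The start-site windows of the 3 genes called in ileum below, and of Rbp2, the binding protein that carries newly absorbed retinol, are shown because they are the stretches where nuclear receptors and gut transcription factors are usually sought. Each window runs from 250 bases before to 50 bases after the RefSeq transcription start on build GRCr8, 5′ to 3′ on the strand of the gene. Capitals mark every match, on either strand, to 3 motifs. These were the nuclear receptor hexamer in the form AGGTCA, in the form GGGTCA, in the form AGTTCA or in the form GGTTCA, the CDX motif in the form TTTATG, in the form TTTATT, in the form TTTACG or in the form TTTACT, and the GATA motif in the form GATAA. No match overlapped another in the windows shown. The windows lie at chr3:74555435-74555734 (plus strand) for Dhrs9, chr19:13223135-13223434 (plus strand) for Isx, chr6:29930134-29930433 (minus strand) for Plb1 and chr8:107963292-107963591 (plus strand) for Rbp2.
Dhrs9: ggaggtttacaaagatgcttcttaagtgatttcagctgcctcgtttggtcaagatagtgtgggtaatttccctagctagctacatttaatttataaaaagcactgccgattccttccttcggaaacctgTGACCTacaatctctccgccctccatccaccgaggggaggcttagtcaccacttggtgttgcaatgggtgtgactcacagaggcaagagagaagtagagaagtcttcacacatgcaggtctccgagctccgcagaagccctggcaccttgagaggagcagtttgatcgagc
Isx: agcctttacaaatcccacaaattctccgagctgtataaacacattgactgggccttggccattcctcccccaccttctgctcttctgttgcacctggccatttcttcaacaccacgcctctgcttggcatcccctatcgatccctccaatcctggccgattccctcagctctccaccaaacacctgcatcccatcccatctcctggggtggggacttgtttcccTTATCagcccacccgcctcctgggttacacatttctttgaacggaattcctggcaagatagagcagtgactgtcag
Plb1: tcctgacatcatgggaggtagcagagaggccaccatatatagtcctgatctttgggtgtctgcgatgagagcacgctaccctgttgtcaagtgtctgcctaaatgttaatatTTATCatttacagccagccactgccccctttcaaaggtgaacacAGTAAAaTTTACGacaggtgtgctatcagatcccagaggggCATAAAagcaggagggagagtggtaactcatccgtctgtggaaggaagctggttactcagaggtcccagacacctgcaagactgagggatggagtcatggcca
Rbp2: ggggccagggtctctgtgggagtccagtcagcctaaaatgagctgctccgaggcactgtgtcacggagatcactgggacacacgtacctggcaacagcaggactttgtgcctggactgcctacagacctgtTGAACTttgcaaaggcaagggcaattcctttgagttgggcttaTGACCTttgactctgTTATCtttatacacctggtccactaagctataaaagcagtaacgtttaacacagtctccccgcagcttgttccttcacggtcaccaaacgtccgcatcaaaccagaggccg

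RefSeq windows were at hand for 9 of the 10 genes, Scarb1 being the exception. The nuclear receptor hexamer occurred in the windows of 5 of them (Rbp2, Bco1, Dhrs9, Rdh7 and Aldh1a1), against 44.4% of 33469 rat windows of the same length. Dhrs9 held it once, at −121 to −116 from the start, and Rbp2 held it in 2 places, at −119 to −114 and at −76 to −71. The pair of hexamers set 1 base apart (DR1), the form bound by retinoid X receptor partners, was in none of the 9 windows and in 0.233% of all windows. The Plb1 window held the CDX motif in 3 places, and 2 of the 9 windows (Plb1 and Lrat) held it at least once, against 39% of all windows. Plb1 also held a GATA motif at −138 to −134, a motif found in 4 of the 9 windows and in 26.5% of all windows. The Isx window held only a GATA motif, at −26 to −22, and Rbp2 also held this motif, at −61 to −57. These matches describe the letters in the windows and were not tested for binding.

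In the ileum of D3M rats, 3 of the 9 genes were called relative to ND, with 12.5% of all 13026 tested genes called in the same comparison (1082 of 1632 higher, or 944 of 1701 with upper-quartile scaling). Dhrs9, which oxidises retinol to retinaldehyde, and Isx, the retinoic acid responsive repressor, were higher, by 2.95-fold and 1.49-fold. Plb1, the brush-border retinyl ester hydrolase, was lower, by 5.29-fold. The retinol binding protein Rbp2, the esterifying enzyme Lrat, the carotenoid genes Bco1 and Scarb1 and the retinaldehyde dehydrogenases Aldh1a1 and Aldh1a2 did not pass the threshold. The median log2 fold change was 0.25 over the 9 genes and −0.08 over all tested genes. In whole tissue, fewer cells of a type and less RNA per cell cannot be told apart.

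The markers of epithelium moved with these groups. The summed level of 10 general epithelial transcripts was 30389 to 39275 CPM in D3M ileum, against 20524 to 28808 CPM in ND ileum, so that every D3M library lay above every ND library, and 4 of the 10 markers were called higher and 1 lower. The summed ileal enterocyte and Paneth cell list was 54454 to 88333 CPM in D3M, against 33818 to 53555 CPM in ND, with 13 of 19 genes called higher. With the epithelial score as a covariate, 176 genes in all were called, among them Dhrs9 (log2 fold change 1.39, edgeR FDR 0.00619), while Isx (0.58, FDR 0.152) and Plb1 (−1.69, FDR 0.246) were not called. With the B cell score as the covariate instead, 1685 genes in all were called, among them Dhrs9, Isx, Plb1 and Aldh1a1. The part of further cell types in these changes was not tested.

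**Figure D1:**
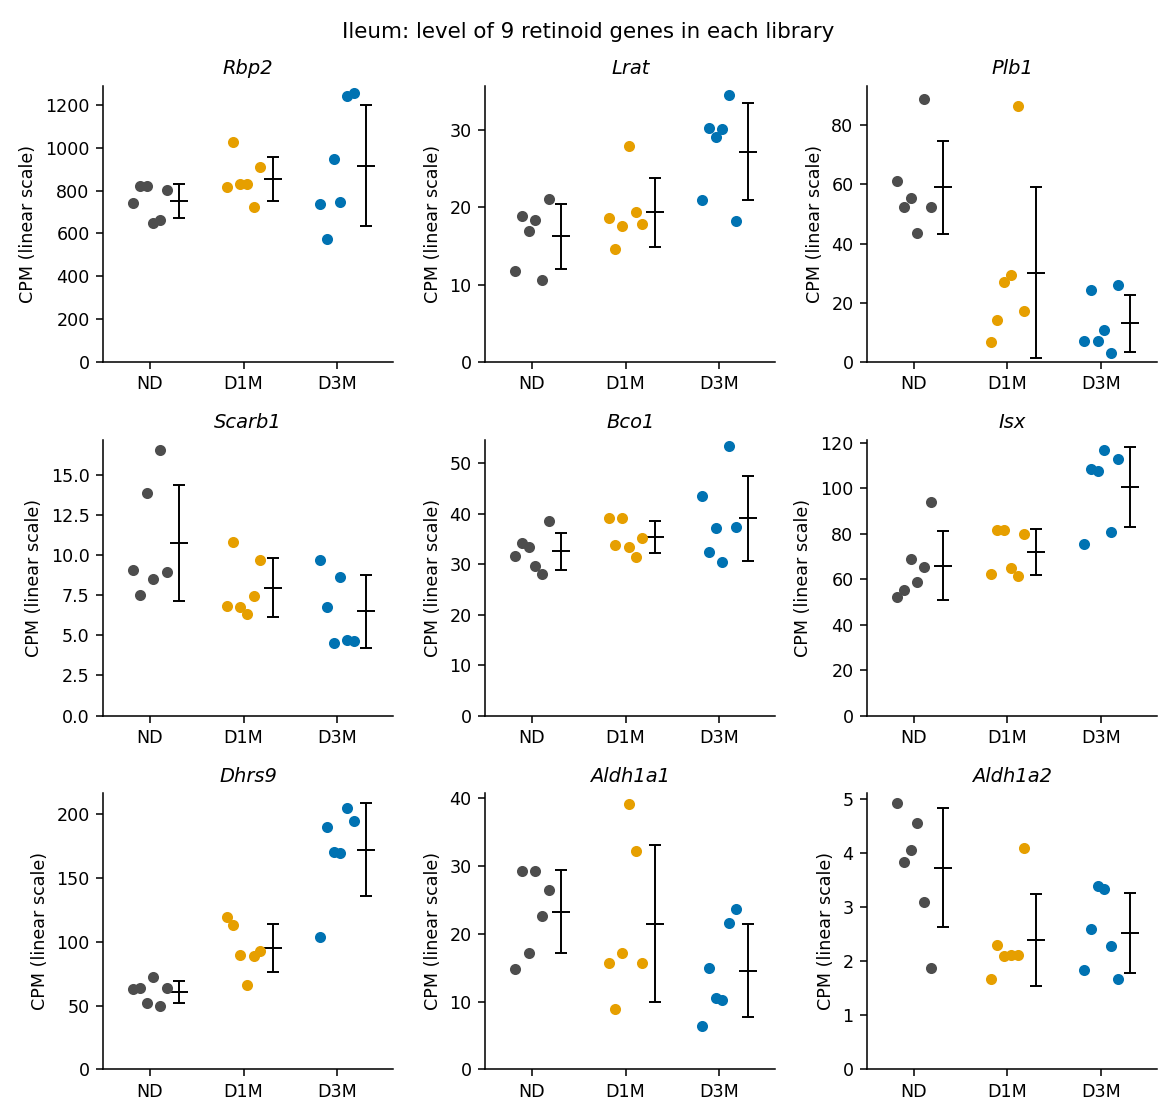
Level of each of the 9 genes in the 18 ileum libraries, in CPM, for ND, D1M and D3M rats (6 each). Points are libraries and black marks give the mean ± SD. Dhrs9 libraries of D3M rats sit between 104 and 205 CPM, above every ND library, and Plb1 libraries of D3M rats sit at 26.0 CPM or less, below every ND library.

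Dhrs9 (ENSRNOG00000058568, plus strand of rn6 chr3:55623634-55648325) encodes a short-chain dehydrogenase that converts retinol to retinaldehyde in epithelia. Its level was lowest 104, median 180.1 and highest 205 CPM in D3M ileum, against 49.8, 63.4 and 72.5 CPM in ND ileum, and every D3M library lay above every ND library, as for 4.48% of all tested genes (6.4% did not overlap in either direction). The log2 fold change was 1.56 (SE 0.164, edgeR FDR 2.40e-04). Within flow cell 1 the difference in log2 CPM was 1.28 (4 D3M against 1 ND library) and within flow cell 3 it was 1.56 (2 against 2). Dhrs9 stayed called when any single rat was left out, with log2 fold changes of 1.46 to 1.70. The D1M libraries had lowest 66.3, median 91.4 and highest 119 CPM, overlapping both other groups. Without the ileum libraries of K4040 and P762 the change relative to ND was 1.60 (FDR 0.00231). Relative to D1M the D3M level was higher by 1.84-fold (log2 fold change 0.88, SE 0.143, FDR 0.0129), with 2.22% of all genes called in that comparison and 1.93% called higher. The D3M library of rat K3959, at 104 CPM, fell within the D1M range, and the other 5 D3M libraries lay above every D1M library. This call was not kept without D1M rat K3988 (FDR 0.0557) or without D1M rat K3989 (FDR 0.0561), nor with the epithelial score as a covariate (log2 fold change 0.78, FDR 0.0571).

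Isx (ENSRNOG00000039808, plus strand of rn6 chr19:14198899-14218531) encodes the intestine-specific homeobox repressor. It reached lowest 75.5, median 108 and highest 117 CPM in D3M ileum, against 52.2, 62.1 and 94.0 CPM in ND ileum. The groups overlapped through a single ND library, that of rat K4048 at 94.0 CPM, which exceeded 2 D3M libraries. The log2 fold change was 0.58 (SE 0.166, edgeR FDR 0.0331), and 8.31% of all tested genes were called higher. The rise was uneven over flow cells, at 0.10 in log2 CPM within flow cell 1 (4 D3M against 1 ND library, rat K4048) and 0.78 within flow cell 3 (2 against 2). The call was lost in 5 of the 18 fits that left out 1 rat (K4028, K4040, K3986, K3961 or P780), with FDR up to 0.106 and log2 fold changes of 0.50 to 0.85 over all 18. The fit without the ileum library of K4040 gave 0.55 (FDR 0.0793), and the fit without those of K4040 and P762 gave 0.62 (FDR 0.0788). D1M libraries had 61.3, 72.4 and 81.5 CPM, and D3M relative to D1M gave a log2 fold change of 0.47 (SE 0.148, FDR 0.102).

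Plb1 (ENSRNOG00000026037, minus strand of rn6 chr6:25397537-25507073) encodes phospholipase B, which in rat hydrolyses retinyl esters and phospholipids at the brush border. Its level was lowest 2.93, median 8.91 and highest 26.0 CPM in D3M ileum, against 43.7, 53.9 and 88.9 CPM in ND ileum. Every D3M library lay below every ND library, as for 1.92% of all tested genes. The log2 fold change was −2.40 (SE 0.675, edgeR FDR 0.0337), with 4.22% of all genes called lower, and the within-flow-cell differences were −2.27 (flow cell 1, 4 against 1) and −2.54 (flow cell 3, 2 against 2). D1M values ran across both ranges, at 6.59, 22.2 and 86.5 CPM, rat K3989 being the highest and the other 5 at 29.2 CPM or less. Plb1 had the largest SE of the 9 genes in this comparison, and its call was lost in 6 of 18 fits without 1 rat (K4028, K4040, K3986, K3977, K3980 or P762), with FDR up to 0.0844 and log2 fold changes of −3.49 to −2.16. The fit without the ileum library of K4040 gave −2.51 (FDR 0.0595), and the fit without those of K4040 and P762 gave −2.29 (FDR 0.0955).

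Retinol binding and esterification differed by less than the threshold. Rbp2 (ENSRNOG00000013932, plus strand of rn6 chr8:106503504-106527711), the enterocyte carrier of retinol and retinaldehyde, had lowest 574, median 846 and highest 1255 CPM in D3M ileum, against 647, 772 and 823 CPM in ND ileum. The D3M range enclosed the ND range, and the 2 highest D3M libraries (P762 and P780, at 1241 and 1255 CPM) were the 2 run on flow cell 3. The log2 fold change was 0.42 (SE 0.164, 95% interval 0.07 to 0.76, FDR 0.1), at −0.12 within flow cell 1 and 0.85 within flow cell 3. Rbp2 was called when ND rat K4048 (FDR 0.0201) or D3M rat K3961 (FDR 0.0418) was left out. Lrat (ENSRNOG00000025608, minus strand of rn6 chr2:181896305-181905300), the enzyme that esterifies retinol for chylomicron packing, had 18.2, 29.7 and 34.5 CPM in D3M, against 10.6, 17.6 and 21.1 CPM in ND. Its groups overlapped, and the log2 fold change was 0.56 (SE 0.219, 95% interval 0.10 to 1.03, FDR 0.0983). Lrat was called without D3M rat K3959 (FDR 0.0486). D1M values were 723, 829 and 1025 CPM for Rbp2 and 14.6, 18.3 and 27.9 CPM for Lrat, overlapping both other groups.

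The carotenoid genes did not pass the threshold. Bco1 (ENSRNOG00000012027, plus strand of rn6 chr19:49637016-49673808), which cleaves beta-carotene to retinaldehyde, had lowest 30.5, median 37.3 and highest 53.4 CPM in D3M ileum, against 28.1, 32.5 and 38.4 CPM in ND ileum, with overlapping groups (log2 fold change 0.25, SE 0.14, 95% interval −0.04 to 0.55, FDR 0.24). Without K4040 and P762 it was 0.08 (FDR 0.735). Scarb1 (ENSRNOG00000000981, plus strand of rn6 chr12:36694960-36761455), the scavenger receptor that takes up carotenoids and cholesterol, had 4.51, 5.73 and 9.68 CPM in D3M, against 7.53, 9.02 and 16.6 CPM in ND. Its groups also overlapped (log2 fold change −0.50, SE 0.259, 95% interval −1.05 to 0.05, FDR 0.205). D1M values were 31.4, 34.5 and 39.1 CPM for Bco1 and 6.36, 7.13 and 10.8 CPM for Scarb1.

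The enzymes that make retinoic acid from retinaldehyde were variable between rats. Aldh1a1 (ENSRNOG00000017619, plus strand of rn6 chr1:238222521-238264330) had lowest 6.45, median 12.7 and highest 23.7 CPM in D3M ileum, against 14.8, 24.6 and 29.3 CPM in ND ileum. The groups overlapped and the log2 fold change was −0.91 (SE 0.431, 95% interval −1.83 to 0.01, FDR 0.172). Aldh1a2 (ENSRNOG00000055049, plus strand of rn6 chr8:77640222-77719489) had 1.67, 2.44 and 3.39 CPM in D3M, against 1.88, 3.95 and 4.94 CPM in ND, again with overlap (log2 fold change −0.47, SE 0.333, 95% interval −1.17 to 0.23, FDR 0.36). D1M values were 8.94, 16.5 and 39.1 CPM for Aldh1a1 and 1.67, 2.11 and 4.09 CPM for Aldh1a2.

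**Figure D2:**
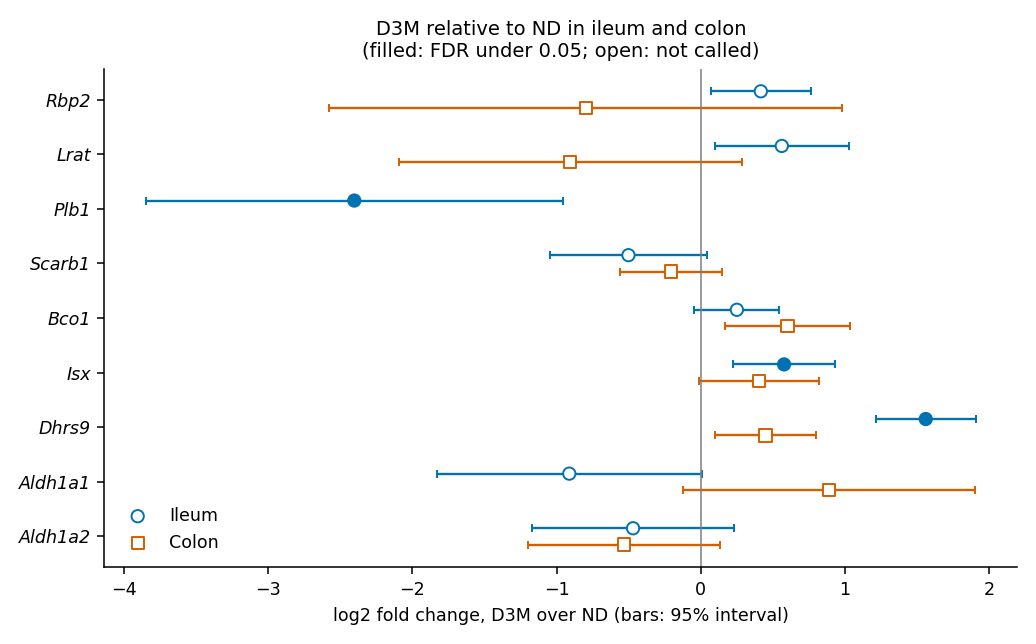
Log2 fold change of D3M relative to ND for each gene in ileum and colon, with 95% intervals from 6 rats per group. Filled marks are genes called at an FDR under 0.05. In ileum these are Dhrs9 (1.56), Isx (0.58) and Plb1 (−2.40), and no gene is filled in colon.

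Between D1M and ND ileum none of the 9 genes was called by edgeR, and 2 of 13026 genes (0.0154%) were called in all. At an unadjusted p under 0.05 the counts were 1 of the 9 genes and 1087 of all genes (8.34%), and over all genes DESeq2 called 44 and limma-voom 1. The 1 gene was Dhrs9, with a log2 fold change of 0.68 (SE 0.147, edgeR unadjusted p 2.40e-04, FDR 0.339). DESeq2 called Dhrs9 in this comparison (FDR 0.0122). Its groups overlapped through D1M rat K3988, at 66.3 CPM, and the mixed-tissue library of ND rat K4040, at 72.5 CPM. The other ND libraries were at 63.6 CPM or less, below every D1M library. Without K4040 edgeR called 0 of the 9 genes in this comparison. Over the 18 fits without 1 rat Dhrs9 gave log2 fold changes of 0.53 to 0.79. For Plb1 the log2 fold change was −1.31 (SE 0.677, FDR 0.644). This comparison and that of D3M with ND share the 6 ND rats.

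In colon none of the 8 tested genes was called in any comparison. Of 12906 tested genes, D3M against ND gave 2 calls (0.0155%), D1M against ND gave 0 (0%) and D3M against D1M gave 0 (0%). At an FDR under 0.2 the first comparison gave 24 calls (0.186%), none of them among the 8 genes. At an unadjusted p under 0.05, edgeR gave 2 of the 8 genes in each of the 3 comparisons, against 10%, 4.66% and 5.28% of all genes, and over all genes DESeq2 called 72, 11 and 1 and limma-voom 8, 0 and 0. The genes were Bco1 and Dhrs9 in both comparisons with ND, and Isx and Aldh1a1 in D3M against D1M. Dhrs9 had lowest 168, median 198.8 and highest 246 CPM in D3M colon, against 99.0, 157 and 251.0 CPM in ND colon. The groups overlapped through the colon libraries of ND rats K4040 (189 CPM) and K4038 (251.0 CPM). The other ND libraries were at 164 CPM or less, below every D3M library. The log2 fold change was 0.45 (SE 0.165, 95% interval 0.10 to 0.80, edgeR unadjusted p 0.0148, FDR 0.383). For D1M relative to ND it was 0.32 (edgeR unadjusted p 0.0478, FDR 0.952). Isx had 39.2, 62.7 and 76.1 CPM in D3M colon, against 32.0, 51.5 and 63.7 CPM in ND colon, with overlap and a change of 0.40 on the log2 scale (FDR 0.512). D3M relative to D1M, at 29.5, 41.7 and 62.3 CPM, gave 0.59 for Isx (unadjusted p 0.00746, edgeR FDR 0.88).

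Bco1 in colon had 14.6, 23.8 and 27.8 CPM in D3M, against 10.8, 14.6 and 20.5 CPM in ND. The highest ND value was that of the mixed-tissue library of K4028, and the other ND libraries were at 15.9 CPM or less. The log2 fold change was 0.60 (SE 0.206, unadjusted p 0.00963, edgeR FDR 0.364), and D1M relative to ND gave 0.62 (unadjusted p 0.00395, FDR 0.952). Aldh1a1 ranged widely in every colon group, from 101 to 406 CPM in D3M, 38.3 to 361 CPM in D1M and 49.0 to 252 CPM in ND. The ND low was K4028, the other ND libraries lying at 109 CPM or more. The log2 fold change was 0.89 for D3M relative to ND (FDR 0.549) and 1.28 relative to D1M (SE 0.509, edgeR unadjusted p 0.0241, FDR 0.945). Over the 18 colon fits without 1 rat, K4028 among them, D3M relative to ND gave 0.66 to 1.29 for Aldh1a1 and 0.46 to 0.69 for Bco1. Neither gene was called in any of these fits. Scarb1 (−0.20, FDR 0.7) and Aldh1a2 (−0.53, FDR 0.583) were not called either.

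For Rbp2 and Lrat the colon comparison turned on the ND library of rat K4028. Rbp2 had lowest 14.3, median 36.5 and highest 52.7 CPM in D3M colon, against 16.9, 26.5 and 340.1 CPM in ND colon, the highest being K4028 and the other ND libraries at 35.1 CPM or less. The log2 fold change was −0.80 (SE 0.831, FDR 0.77), and 0.26 (FDR 0.91) without the 2 mixed-tissue libraries. Lrat gave −0.91 (FDR 0.596) with them and −0.00079 (FDR 1) without them. Plb1 was too low for testing in colon. It had 0 counts in all 6 D3M libraries, in 4 of 6 D1M libraries and in 1 of 6 ND libraries, where a count of 0 allows up to 0.162 to 0.307 CPM, covering counting error only. Its 1 high value was 19.9 CPM in K4028.

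**Figure D3:**
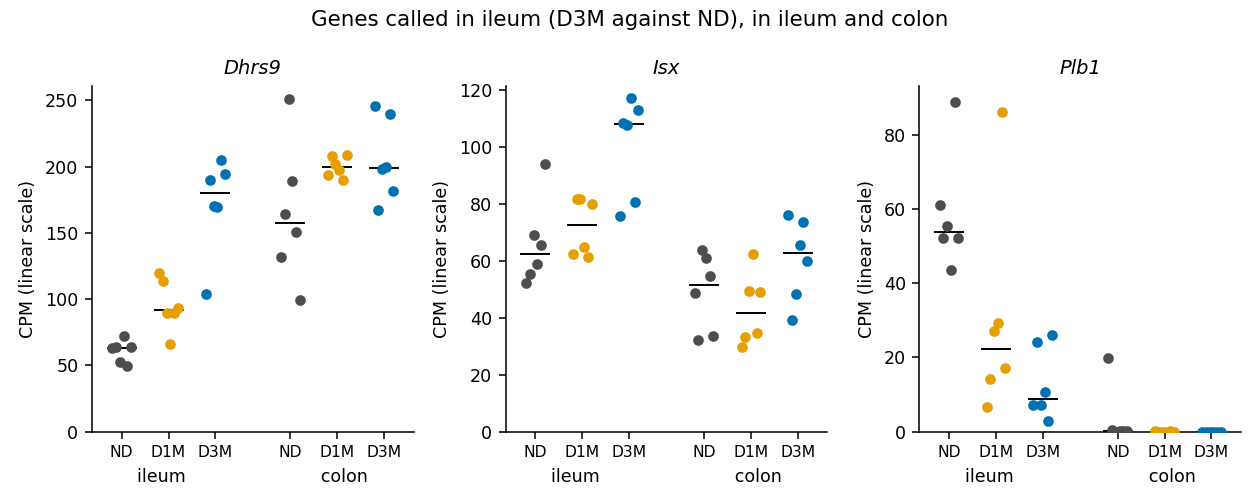
CPM of Dhrs9, Isx and Plb1 in ileum and colon libraries by group (ND, D1M, D3M; 6 rats each), with bars at the medians. Median Dhrs9 is 63.4, 91.4 and 180.1 CPM in ND, D1M and D3M ileum, against 157, 199.7 and 198.8 CPM in the same groups in colon.

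On a scale common to both tissues, 8 of the 9 genes were called between ileum and colon of the same rats, with 73.2% of all 13697 tested genes called. In the ileum 5 genes were higher and 3 lower, with 34.5% of all genes higher and 38.7% lower. Retinol binding and esterification genes were among the higher. Median Rbp2 was 852 CPM in ileum, against 26.3 CPM in colon (22.2-fold, log2 fold change 4.47, SE 0.354, edgeR FDR 6.62e-13), and median Lrat was 20.1 CPM, against 1.25 CPM (11.9-fold). Both were higher in the ileum in 18 of 18 rats. Without the 2 mixed-tissue libraries, the log2 fold changes were 4.98 for Rbp2 and 3.94 for Lrat. Plb1 had a median of 29.0 CPM in ileum, against 0 CPM in colon, where 16 of 18 libraries held under 3 counts. Its fitted log2 fold change was 6.45 with the colon library of K4028 (18.7 CPM) kept, and 9.48 without the 2 mixed-tissue libraries. The other colon libraries held 0.268 CPM or less, so that the second value depends on the small number added to the counts. Neither value is a bound.

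Bco1 (median 35.6 CPM in ileum, against 20.4 CPM in colon) and Isx (81.5 against 46.2 CPM) were also higher in the ileum, by log2 fold changes of 1.04 and 0.79, in 18 of 18 rats each. Aldh1a1, Dhrs9 and Scarb1 were lower in the ileum. Aldh1a1 had a median of 18.1 CPM in ileum, against 170.0 CPM in colon (8.07-fold lower in the ileum, log2 fold change −3.01, FDR 2.78e-10), and was lower in the ileum of all 18 rats. Dhrs9 had 96.8 CPM, against 185 CPM (log2 fold change −0.81), and was higher in the ileum in 3 of 18 rats. These 3 were D3M rats, K3961 (204 against 157 CPM), P762 (228 against 227 CPM) and P780 (218 against 171 CPM). The P762 ileum library held the colonic transcript Car1 at 1345 CPM, as given above. The part of colonic RNA in its Dhrs9 value was not tested. The other D3M rats were K3977 (183 against 189 CPM), K3980 (180 against 187 CPM) and K3959 (109 against 235 CPM). Every ND and D1M rat was lower in the ileum. Scarb1 had 8.49 CPM, against 14.8 CPM (−0.66), and was higher in the ileum in 2 rats. Aldh1a2 was not called (−0.21, SE 0.17, FDR 0.257). The same 8 genes were called with rat as a replicate block and when any single rat was left out.

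**Figure D4:**
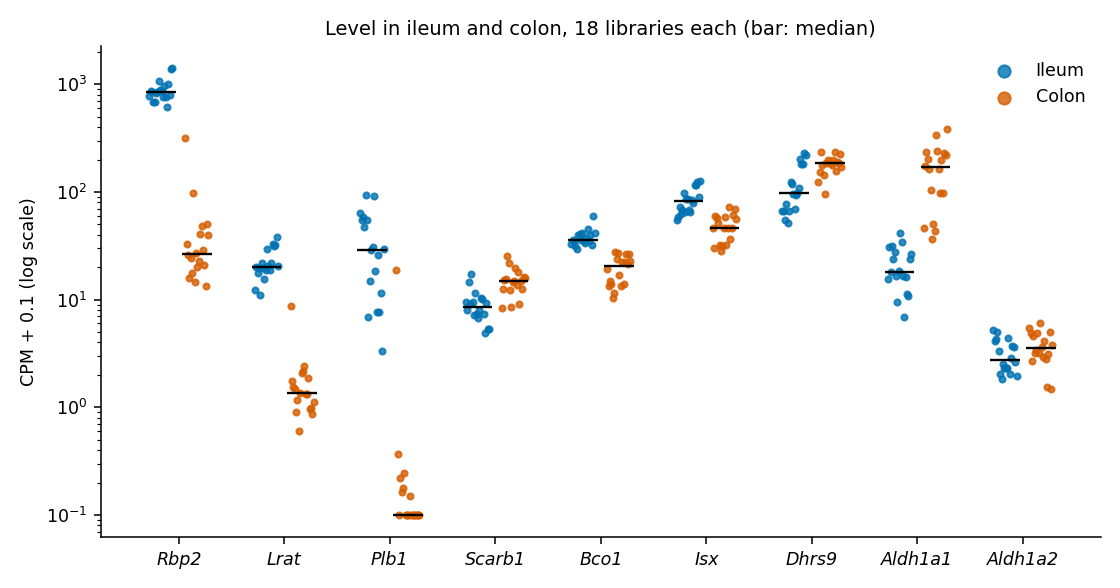
Level of each gene in the 18 ileum and 18 colon libraries on a common CPM scale, drawn as CPM + 0.1 on a log axis, with bars at the medians. Rbp2, Lrat, Plb1, Bco1 and Isx are higher in the ileum of all 18 rats and Aldh1a1 is lower in all 18.

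The group effect itself was compared between tissues. For D3M relative to ND, Dhrs9 was the only one of the 9 genes called, with 1.56% of all genes called (174 of 214 higher, or 120 of 171 with upper-quartile scaling). The ileal change exceeded that in colon by 1.16 on the log2 scale (SE 0.241, edgeR FDR 0.0149), and by 1.24 (FDR 0.0355) without the 2 mixed-tissue libraries. Without these and the ileum library of P762 it was 1.22 (FDR 0.0562) and was not called. With rat as a replicate block, which takes account of both libraries coming from 1 animal, the difference was 0.81 (FDR 0.32) and was not called. The call was also lost without D1M rat K3986 (FDR 0.052) or without D3M rat K3961 (FDR 0.0716) or P780 (FDR 0.0641). For Isx, Bco1 and Scarb1 the difference between tissues was not called, and neither were Lrat (1.54, FDR 0.185) or Aldh1a1 (−1.75, FDR 0.176). For D1M relative to ND and D3M relative to D1M none of the 9 genes was called, and edgeR called 0 of 13697 genes (0%) in each, against 775 (5.66%) and 1138 (8.31%) at an unadjusted p under 0.05, 21 and 19 by DESeq2 and 0 and 0 by limma-voom.

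Around these genes, 94 further names of retinoid handling were followed in 7 lists, of which 82 matched a row and 60 passed the filter on low counts in ileum. In D3M relative to ND, 7 of the 60 tested pathway genes were higher and 6 lower, beside 8.31% higher and 4.22% lower over all tested genes. The median log2 fold change over the pathway lists was −0.14, beside −0.08 over all tested genes. The cellular binding proteins and receptors of retinol gave 0 called higher and 1 called lower of 6, with fitted changes below 0 for 6 of 6 and a median of −0.58. Retinoic acid targets gave 1 higher and 1 lower of 11, with fitted changes below 0 for 9 and a median of −0.27, beside 7611 of 13026 below 0 over all genes. The calls higher and lower in the other lists were, for retinyl ester synthesis and hydrolysis 2 and 2 of 9, carotenoid and sterol transport 0 and 0 of 5, retinol and retinaldehyde oxidoreductases 3 and 2 of 15, retinoic acid synthesis and breakdown 0 and 0 of 5, and nuclear receptors 1 and 0 of 9.

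Among the oxidoreductases, Akr1b10, an aldo-keto reductase that returns retinaldehyde to retinol, had lowest 332, median 395 and highest 543 CPM in D3M ileum, against 203, 232 and 286 CPM in ND ileum. The groups did not overlap, and the log2 fold change was 0.84 (SE 0.138, edgeR FDR 0.00255). Rdh16, a microsomal retinol dehydrogenase, had 1779.6, 2061 and 2186 CPM in D3M, against 1195, 1504 and 1674 CPM in ND, again without overlap (0.49, SE 0.109, FDR 0.00996). It was also the 1 pathway gene called relative to D1M (0.41, SE 0.0949, FDR 0.0364), and that call was kept in 10 of 18 fits without 1 rat. Its D1M libraries lay between 1390.4 and 1684 CPM, below every D3M library, as for 1.33% of all tested genes. Akr1b10 and Rdh16 belong to families of close rodent paralogs, Rdh7 being one of the relatives of Rdh16, and reads of near-identical copies could have been split or shared in the counting, which leaves their levels uncertain. Rdh10, the retinol dehydrogenase needed for embryonic retinoic acid in mouse, rose by 0.41 (FDR 0.0349). In the reducing direction, Dhrs4, a peroxisomal retinaldehyde reductase, had 53.6, 68.1 and 75.3 CPM in D3M, against 77.4, 86.4 and 92.1 CPM in ND, without overlap (−0.40, FDR 0.0191). Retsat, the retinol saturase, was lower (−0.54, FDR 0.0251), with libraries at 454 to 733 CPM in D3M, against 669 to 943 CPM in ND.

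Of the ester genes, Dgat1, which can esterify retinol beside its role in triglyceride synthesis, had lowest 837, median 1029 and highest 1141 CPM in D3M ileum, against 625, 763 and 868 CPM in ND ileum (log2 fold change 0.50, SE 0.123, edgeR FDR 0.016). The groups overlapped. Pnliprp2, a lipase of the pancreatic lipase family, was low in both groups and higher in D3M, at 2.39, 6.38 and 9.26 CPM, against 0.806, 1.39 and 2.46 CPM in ND (2.05, FDR 0.00379). Lpl, the lipoprotein lipase, had 4.96 to 10.6 CPM in D3M, against 8.56 to 45.6 CPM in ND (−1.94, FDR 0.0145), and Pnpla3, a lipid droplet hydrolase, gave −1.64 (FDR 0.0162). The cellular retinol binding protein Rbp7, known from adipose and endothelial cells, had 0.484, 0.922 and 1.83 CPM in D3M, against 0.655, 4.38 and 7.72 CPM in ND (−2.21, SE 0.556, FDR 0.0186). The summed adipocyte markers were 39.2 to 62.4 CPM in D3M, against 22.6 to 98.3 CPM in ND, with 0 of 4 tested markers called and a median log2 fold change of −1.43 over these 4. The summed fibroblast markers were 437 to 740.4 CPM in D3M, against 582 to 1158 CPM in ND, with 2 of 8 called lower and a median of −0.64. The summed crypt markers were 339 to 658 CPM in D3M, against 475 to 963 CPM in ND, with 0 of 10 called and 9 of 10 fitted changes below 0. The part of these cell types in the changes of Rbp7, Lpl, Pnpla3 and Tgm2 was not tested.

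Retinoic acid targets and receptors changed in few members. Rai14, a retinoic acid induced cytoskeletal protein, was higher (log2 fold change 0.79, SE 0.25, edgeR FDR 0.0485), and Tgm2, the transglutaminase induced by retinoic acid, was lower (−0.89, SE 0.229, FDR 0.0202), at 22.2 to 57.5 CPM in D3M, against 47.1 to 76.5 CPM in ND. Ppard, a nuclear receptor that binds fatty acids and has been described as a receptor for retinoic acid, was higher by 0.35 (FDR 0.0269). Of 8 regulators of enterocyte genes reported here, 2 were higher and 0 lower. Klf4, a factor of differentiated surface cells, had lowest 330, median 403 and highest 463 CPM in D3M ileum, against 193, 285 and 319 CPM in ND ileum, without overlap (0.54, FDR 0.0448). Hnf4a, the nuclear receptor that maintains enterocyte identity, had 877, 1058 and 1119 CPM, against 613, 758 and 912 CPM (0.32, FDR 0.0488). The calls of Rai14, Hnf4a and Klf4 relative to ND were kept in 5, 6 and 7 of 18 fits without 1 rat. Those of Akr1b10, Rdh16, Pnliprp2 and Pnpla3 relative to ND were kept in 18 of 18. Retsat and Ppard kept theirs in 14, Rdh10 and Dhrs4 in 15, Rbp7 and Tgm2 in 16, and Dgat1 and Lpl in 17. Over 14 other settings of the fit, Akr1b10 stayed called in 14, and Rai14, Hnf4a and Ppard in 6, 7 and 9. The rest of these genes stayed called in 10 to 12.

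**Figure D5:**
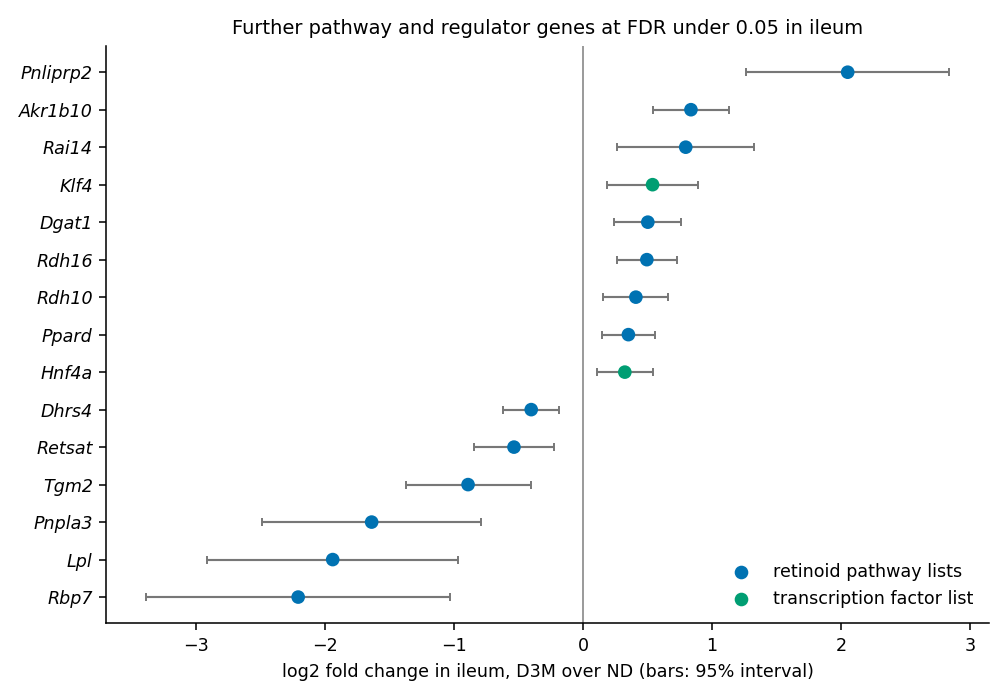
Log2 fold change of D3M relative to ND in ileum, with 95% intervals from 6 rats per group, for the 15 further retinoid genes and regulators called at an FDR under 0.05. Pnliprp2 (2.05) is the farthest to the higher side and Rbp7 (−2.21) the farthest to the lower side.

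Since ISX is known in mouse as the repressor of Bco1 and Scarb1, their transcripts were set against Isx across the 18 ileum libraries, which differ in depth, flow cell and cell composition. Isx and Bco1 gave Pearson r 0.216 (permutation p 0.398, adjusted over the 2 pairs 0.398) and Spearman rho 0.259 (permutation p 0.30, adjusted 0.302). Isx and Scarb1 gave r −0.363 (permutation p 0.135, adjusted 0.270) and rho −0.255 (permutation p 0.302, adjusted 0.302). Without the 2 libraries farthest from the median of Isx, r was 0.306 and −0.424. Within flow cell 1 (8 libraries) r was −0.113 for Bco1 and −0.131 for Scarb1, and within flow cell 3 (6 libraries) it was 0.444 and −0.688, while flow cell 2 held too few libraries for a value. Within groups of 6 rats, Isx and Bco1 gave r 0.597 in ND, 0.262 in D1M and −0.846 in D3M (exact permutation p 0.228, 0.55 and 0.0722), and Isx and Scarb1 gave 0.205, 0.614 and −0.204 in the same order (exact permutation p 0.642, 0.283 and 0.581). No relation passed its permutation test, so that a relation of either sign was not shown.

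Rbp2 had its closest likeness, by Pearson r of log2 CPM over 18 ileum libraries and 13026 tested genes, with Atp6v1e1 (0.94), Ube2m (0.93), Slc26a6 (0.90), Acot8 (0.89) and Ube2j2 (0.89). None of the other 8 genes of the set was among these 5, and the libraries differ in flow cell, depth and cell composition.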

How the data were processed

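Distal ileum and proximal colon RNA of 18 male UCD-T2DM rats (36 libraries, 6 rats per group and tissue, separate animals) was prepared by the authors with a stranded poly-A kit and sequenced on a NextSeq 500. The deposited values used here were raw read counts per annotated gene, which the authors made by alignment to rn6 with STAR and gene-level quantification in SeqMonk, without pooling replicates. Tool versions and the strand setting of the counting are not given in the sources used here. A second deposited table with the same genes on a scaled log2 scale, and 36 columns of standard deviations that were all 0, were not used.

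Each tissue was fitted over its 18 libraries in edgeR 4.0.16 (R 4.3.3): genes kept by filterByExpr on group, TMM scaling, group and flow cell as terms, quasi-likelihood test, and Benjamini-Hochberg adjustment over 13026 genes in ileum and 12906 in colon. Ileum over colon, and the difference of group effects between tissues, came from 1 fit of 36 libraries (13697 genes). The SE was the log2 fold change over the square root of F, and 95% intervals used its t quantile. The 9 genes, the lists around them and the markers were chosen with earlier results of these data known. Named beyond the 9 were up to 16 genes of the pathway lists with the smallest p among those called in ileum between D3M and ND (13 were called, and all are named), those called between D3M and D1M, and every called regulator. One gene of the regulator list is not reported here. Isx was correlated over log2 CPM (2 counts added per library on average) by permutation tests (100000 resamples, or exact enumeration under 9 libraries, SciPy 1.17.1). The fitting steps were tested on simulated data.

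Alternatives were other scaling (RLE, upper quartile), other filters on low counts, DESeq2 1.42.0, limma-voom (limma 3.58.1), no robust estimation, no flow cell term, without flow cell 2, only the groups compared, B cell or epithelium scores as covariates, without 2 libraries that carried transcripts typical of the other gut segment, rat as a replicate block, and each rat left out. Leaving out the ileum library of P762 beside those 2 was chosen after seeing the data. The pairing of tissues comes from the rat identifier in the labels. The correlation of the deviations of both libraries of a rat from their group means was −0.564 to 0.767 (median −0.0221), over 0.1 in 7 of 18 rats. Start-site windows were RefSeq sequences on GRCr8, and gene positions are those of the deposited table on rn6.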

Additional observations from a re-analysis of the deposited data

Results flagged for a closer look

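Of 54 groups of 6 libraries examined for a library far from the rest, 7 held one, and chance gives about 1 in 20. In ileum, Aldh1a2 was at 4.09 CPM in D1M rat K3990, against 1.67 to 2.30 CPM in the other D1M rats. Dhrs9 was at 104 CPM in D3M rat K3959, against 169 to 205 CPM in the other D3M rats, still above every ND library. In colon, the ND library of rat K4028 stood apart for 3 genes, with Rbp2 at 340.1 CPM (other ND rats 16.9 to 35.1 CPM), Lrat at 9.22 CPM (0.846 to 1.79 CPM) and Plb1 at 19.9 CPM (0 to 0.289 CPM). This was also the colon library with the ileal transcript Fabp6 at 8706 CPM. Plb1 was at 0.152 CPM in colon of D1M rat K3978, against 0 to 0.052 CPM in the other D1M rats, a matter of a few reads. Bco1 was at 14.6 CPM in colon of D3M rat K3959, against 23.0 to 27.8 CPM in the other D3M rats.

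The effect of D3M relative to ND on Dhrs9 was called as different between the tissues in the main fit only with limits. There the ileal log2 fold change exceeded that of colon by 1.16 (edgeR FDR 0.0149). With rat as a replicate block the difference was 0.81 (FDR 0.32) and was not called. The call was also lost without rat K3986, K3961 or P780, and without the mixed-tissue libraries and the ileum library of P762.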

How the results depend on the processing

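Dhrs9 was called between D3M and ND ileum under every alternative and in 18 of 18 fits that left out 1 rat. The number of the 9 genes called in this comparison was 3 and became 5 without the flow cell term (Lrat and Scarb1 added). It was 1 (Dhrs9) without flow cell 2, with only the groups compared, without the 2 mixed-tissue libraries (in ileum the same fit as without K4040), without these and the ileum library of P762, and with the epithelium score as a covariate. Leaving out 1 rat gave 1 to 4. It was 4 (Aldh1a1 added) in limma-voom and with the B cell score as a covariate (summed B cell markers up to 562 CPM in D3M and up to 1501 CPM in ND). Isx had FDR 0.115 without flow cell 2 and 0.162 with only the groups compared, and Plb1 had FDR 0.122 and 0.109 there and 0.0511 with no filter on low counts. DESeq2 gave Plb1 no adjusted p in this comparison. Between D1M and ND ileum DESeq2 called 1 (Dhrs9), against 0 in edgeR. Between D3M and D1M ileum the count was 1 in edgeR, 2 in DESeq2 (Isx, Dhrs9), 3 in limma-voom (Isx, Dhrs9, Plb1), 0 with the epithelium score, and 0 to 2 with 1 rat left out. The difference between tissues for D3M relative to ND was called in 1 gene, in 2 without the flow cell term (Lrat, Dhrs9), in 0 with rat as a replicate block, in 0 without the 2 mixed-tissue libraries and the ileum library of P762, and in 0 to 1 with 1 rat left out. The block changed no other call of the 9 genes. The correlation of Isx with Bco1 turned to −0.128 on deviations from group and flow cell means and to −0.159 after subtracting the epithelium score, and that of Isx with Scarb1 to 0.0528 and 0.12. Where the cause of a change is not given by fewer libraries or genes, the cause was not tested.

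Over all genes, the 1632 calls between D3M and ND ileum became 3007 without the flow cell term, 1024 without the 2 mixed-tissue libraries, 776 without these and the ileum library of P762, 561 without flow cell 2, 185 with only the groups compared and 176 with the epithelium score, and 675 to 2437 with 1 rat left out. The 289 calls between D3M and D1M became 989 in DESeq2, 787 in limma-voom, 189 with no filter, 130 without flow cell 2 and 35 with the epithelium score, and 6 (without D1M rat K3989) to 761 (without D3M rat K3959) with 1 rat left out. The 214 calls of the tissue difference became 761 without the flow cell term, 514 in DESeq2, 133 with no filter, 113 with at least 1 CPM in 6 libraries, 37 without the 2 mixed-tissue libraries, 35 without these and the ileum library of P762, and 0 with the block (1459 at an unadjusted p under 0.05). The 2 calls between D3M and ND colon became 315 with only the groups compared. Plb1 did not pass the low-count filter in colon, where most libraries had no read, and was not called there with no filter.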
